A study of Mus musculus with 6 samples.

Results

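The mitochondrial protein import machinery was taken as the genes whose symbols begin with Timm, Tomm or Grpel followed by a digit, with Samm50 and Pam16 and without Timmdc1 and pseudogenes. This name rule, which used no measured value, found 30 genes among 49315 in the count table. They were the TOM complex genes Tomm5, Tomm6, Tomm7, Tomm20, Tomm20l, Tomm22, Tomm40, Tomm40l and Tomm70a, the co-chaperone gene Tomm34, Samm50, the small TIM genes Timm8a1, Timm8a2, Timm8b, Timm9, Timm10 and Timm13, the TIM22 genes Timm10b, Timm22 and Timm29, the TIM23 genes Timm17a, Timm17b, Timm21, Timm23 and Timm50, the motor genes Timm44, Pam16, Grpel1 and Grpel2, and Tomm6os, a non-coding transcript on the strand opposite Tomm6. RNA was sequenced from gastrocnemius muscles of male C57BL6J mice that had received an intramuscular AAV9 vector at 5 months of age and were examined 5 months later. In 3 muscles the vector was AAV9-HSA-CAAHR, which carries a constitutively active mouse aryl hydrocarbon receptor (AHR), a transcription factor that normally needs a ligand, with its ligand-binding domain deleted. In the other 3 it was AAV9-HSA-GFP, which carries a green fluorescent protein. Both cargoes stood behind HSA, the promoter of human skeletal actin, so expression was directed to myofibres, and both groups had received a virus; muscle without a virus was not analysed here.

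Nearly all mitochondrial proteins are encoded in the nucleus, made in the cytosol and carried across the mitochondrial membranes. They enter through the translocase of the outer membrane (TOM), and beta-barrel proteins are then placed in the outer membrane by the sorting and assembly machinery (SAM). Small TIM chaperones guide hydrophobic carriers to the TIM22 translocase, and proteins with a cleavable presequence pass through the TIM23 translocase, where a motor driven by the mitochondrial Hsp70 pulls them into the matrix. Skeletal muscle depends on this route for its respiratory chain.

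Library totals ranged from 43432994 to 58825752 counts. The delivered gene Ahr was at 9.97 to 22.8 CPM (counts scaled to library size, then between libraries with the TMM factors of edgeR) in AAV9-HSA-CAAHR muscles and at 1.87 to 2.55 CPM in AAV9-HSA-GFP muscles, so each library matched its label. Cyp1a1, the classical AHR target, was at 1231 to 1680.2 CPM against 5.85 to 7.74 CPM. The muscle fibre markers Acta1 and Ckm were abundant, with the 6 markers of that list summing to 54067 to 57358 CPM and 78286 to 84198 CPM. Acta1 and Ckm were themselves lower in AAV9-HSA-CAAHR muscles, with log2 fold changes of -0.74 and -0.73. They were the 2 of the 6 with an adjusted p under 0.05 (edgeR), against 7.60% of all tested genes. The list did not share this direction, since 3 of the 6 log2 fold changes lay above 0, up to 1.12. The groups also differed in other respects. Of the 10 fast fibre transcripts, 8 had a log2 fold change below 0, and 2 had an adjusted p under 0.05 (edgeR), both lower in AAV9-HSA-CAAHR muscles. All 5 adipocyte transcripts lay below 0, with 1 at an adjusted p under 0.05. None of the 3 endothelial and 3 fibroblast transcripts was at an adjusted p under 0.05. The 9 slow fibre transcripts summed to 2783, 649 and 2518 CPM in AAV9-HSA-CAAHR replicates 31, 34 and 36 and to 228 to 461 CPM in AAV9-HSA-GFP muscles. Of these 9, 8 were at an unadjusted p under 0.05 (edgeR), against 23.9% of all tested genes. At an adjusted p under 0.05 there was 1, against 7.60% of all tested genes. None was at 0 in any library. The 10 leukocyte transcripts summed to 27.6 to 37.3 CPM against 150 to 464 CPM, and Ighm alone averaged 13.7 against 255 CPM. Of the 10, 9 were at an unadjusted and 4 at an adjusted p under 0.05 (edgeR), all lower in AAV9-HSA-CAAHR muscles. Cd3g was at 0 in 2 libraries. By quantitative PCR, the authors found selected immune genes not to be lower in AAV-CAAHR muscle than in muscle of uninfected mice. They read this as an immune reaction of the muscle to AAV-GFP, which was not tested here. In whole muscle, fewer cells of a type and less RNA per cell cannot be told apart, and the part of these differences in the values below was not tested. A slow-fibre covariate, the centred mean of the slow fibre transcripts, is given where it bears on a result. It was apart between the groups, at -0.17 to 1.88 in AAV9-HSA-CAAHR and -1.63 to -0.68 in AAV9-HSA-GFP libraries, so it could not separate fibre type from vector.

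The comparison asked whether import machinery transcripts differed between muscles with constitutively active AHR and with GFP. Of the 30 genes, 28 passed the filter on low counts and none had an adjusted p under 0.05 by edgeR's quasi-likelihood test with Benjamini-Hochberg adjustment over 15847 genes, whereas 7.60% of all tested genes did (3.04% higher, 4.57% lower). With a change over 2-fold required as well, 3.48% of all tested genes and 0 of the 28 were called. At an unadjusted p under 0.05 there was 1 of 28 genes (3.57%), Tomm34, against 23.9% of all tested genes. DESeq2 and limma-voom also called 0 of the 28, beside 1923 and 1461 of the 15847 tested genes. Each had 1 of the 28 at an unadjusted p under 0.05, which was not counted over all genes by these tools. The log2 fold changes ran from -0.18 for Timm23 to 0.49 for Tomm6os with a median of 0.03, beside a median of 0.01 over all tested genes, and 17 of the 28 lay above 0. The groups did not overlap for 5 of the 28 genes (17.9%), against 29.9% of all tested genes. These 5, named because of their values, were Tomm34, Grpel2 and Timm22 with AAV9-HSA-CAAHR above, and Timm23 and Tomm22 with AAV9-HSA-CAAHR below. The 2 genes that were not tested were Timm8a2, at 0 to 2 counts, and Tomm20l, at 0 to 1 counts, both at or under the floor of 3 counts in every library.

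The intervals bound the size of these differences. The approximate 95% interval of the log2 fold change lay within -1 and 1 for 27 of the 28 genes, the exception being Tomm6os, and within -0.5 and 0.5 for 25 of them. Among all tested genes 70.8% and 37.6% had intervals inside these bounds, which depends on the size of the difference as well as on its precision. The median standard error was 0.12 for the import genes and 0.16 for all tested genes. A change of 2-fold was therefore outside the interval of every tested protein-coding member, while smaller differences remained possible for most.

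**Figure D1:**
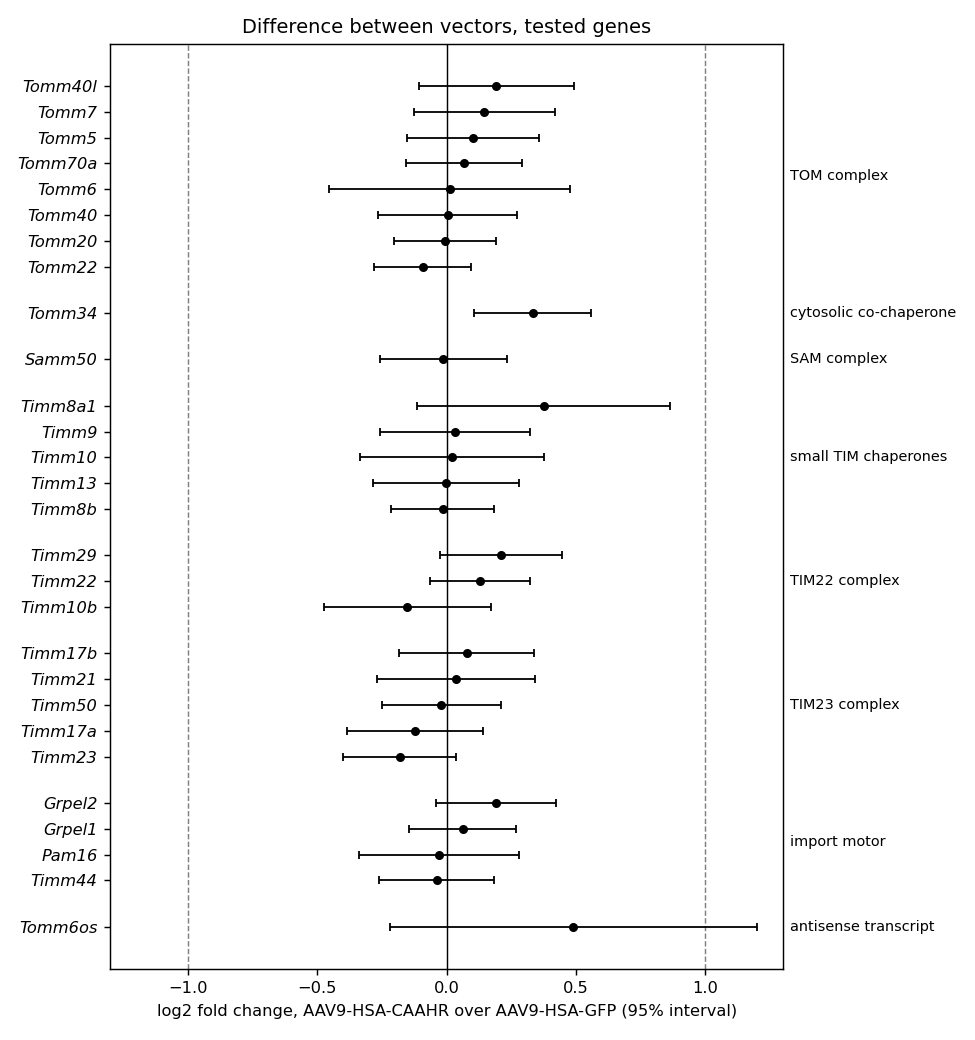
Log2 fold change of each tested import machinery gene, AAV9-HSA-CAAHR over AAV9-HSA-GFP, grouped by complex; points are edgeR estimates from 3 libraries per group, bars are approximate 95% intervals, and dashed lines mark a 2-fold change. The interval of Tomm34 (0.11 to 0.56) is the 1 that does not include 0, and that of Tomm6os reaches beyond 1.

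The receptors of the TOM complex recognise proteins at the mitochondrial surface. Tomm20 (ENSMUSG00000093904, chromosome 8, 126930667 to 126945844, GRCm38) encodes the presequence receptor and was at 68.6, 68.0 and 73.6 CPM in AAV9-HSA-CAAHR replicates 31, 34 and 36 and at 67.5, 70.0 and 73.6 CPM in AAV9-HSA-GFP replicates 42, 43 and 46. The groups covered nearly the same range, and the log2 fold change was -0.01 ± 0.09 (SE), with an interval from -0.20 to 0.19. Tomm70a (chromosome 16, 57121703 to 57156705), the receptor for carrier proteins delivered by cytosolic chaperones, was at 59.0 ± 5.59 CPM (SD, n = 3) against 56.3 ± 3.20 CPM (log2 fold change 0.07 ± 0.10). Tomm22 (chromosome 15, 79670861 to 79673400) encodes the receptor that also holds the complex together, and was at 29.0, 28.2 and 27.8 CPM against 29.1, 31.1 and 30.4 CPM. All 3 AAV9-HSA-CAAHR libraries lay below the AAV9-HSA-GFP libraries, but the gap between replicate 31 and replicate 42 was smaller than the spread within either group, and the log2 fold change was -0.09 ± 0.08 (edgeR, adjusted p 0.561).

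The channel gene Tomm40 (chromosome 7, 19701313 to 19715438) was at 33.3, 32.1 and 33.6 CPM in AAV9-HSA-CAAHR muscles and at 28.0, 32.1 and 38.7 CPM in AAV9-HSA-GFP muscles. The AAV9-HSA-GFP libraries spanned the AAV9-HSA-CAAHR values on both sides, and the log2 fold change was 0.00 ± 0.12. Its paralogue Tomm40l had a log2 fold change of 0.19 ± 0.13. The Tomm40l gene shares 64.3% of its exon length with Nr1i3 on the opposite strand, and Nr1i3 was at 24 to 57 counts. As the sources used here do not say whether strands were separated, that count cannot show how many reads the overlap affects. The small subunits, which steady the channel, were led per kilobase of exon by Tomm5 (chromosome 4, 45105208 to 45108114), whereas per kilobase of coding sequence Tomm7 was higher (118 against 60.1 CPM in AAV9-HSA-GFP muscles). Tomm5 was at 19.7, 18.2 and 22.4 CPM against 17.1, 18.7 and 20.5 CPM, with overlapping groups and a log2 fold change of 0.10 ± 0.11. Tomm7 was at 21.6 ± 3.22 CPM against 19.5 ± 0.967 CPM (log2 fold change 0.15 ± 0.12). Tomm6 was at 2.97 ± 0.657 CPM against 2.96 ± 0.378 CPM (log2 fold change 0.01 ± 0.21), and 76.0% of its exon length is shared with Gm21981 on the same strand, so its level is uncertain. Tomm6os, which shares 219 exon bases with Tomm6 and 1221 with Prickle4, was at 0.627 ± 0.0647 CPM against 0.449 ± 0.111 CPM. Whether counting separated the strands is not given in the sources used here, so its reads cannot be told apart from those of its neighbours.

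Tomm34 (ENSMUSG00000018322, chromosome 2, 164053540 to 164071169) encodes a cytosolic co-chaperone that binds Hsp70 and Hsp90 and works before the TOM complex rather than in it. It was at 15.5, 16.6 and 15.8 CPM in AAV9-HSA-CAAHR replicates 31, 34 and 36 and at 12.3, 11.9 and 13.8 CPM in AAV9-HSA-GFP replicates 42, 43 and 46. Every AAV9-HSA-CAAHR library lay above every AAV9-HSA-GFP library, with a gap of about the same size as the spread within the AAV9-HSA-GFP group. The log2 fold change was 0.33 ± 0.10, a 1.26-fold higher level, with an interval from 0.11 to 0.56, an unadjusted p of 0.00841 and an adjusted p of 0.0759 (edgeR), so it did not pass over all tested genes. Across the other settings its log2 fold change ranged from 0.26 to 0.41 and its adjusted p from 0.0359 to 0.371. It passed with library size only as scaling. Adding the slow-fibre covariate, which was apart between the groups, gave 0.36 ± 0.19 (SE) with an unadjusted p of 0.0924 (edgeR).

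The AHR binds DNA at a response element whose core is GCGTG, so the promoters of the import genes were read for it. The RefSeq promoter table (GRCm38.p6) held 28 promoters of 26 of the 30 genes, each 250 bases before to 50 bases after a transcription start. The core GCGTG, on either strand, was in 17 of the 28 promoters (60.7%), against 32.4% of all 32851 promoters and 48.4% of the 14382 promoters of tested genes. The longer element TNGCGTG, which contains the core, was in 7 promoters of 6 genes (25.0%, against 5.07% of all promoters and 7.49% of those of tested genes), with 2 overlapping Tomm34 promoters holding the same copy. The 6 genes were Tomm34, Tomm20, Tomm70a, Timm29, Timm10 and Tomm6os. Their log2 fold changes were 0.33, -0.01, 0.07, 0.21, 0.02 and 0.49, and none had an adjusted p under 0.05. Within the 100 bases before the start, 1 promoter, that of Tomm6os, held the longer element. These matches are descriptions of letters and not of binding.

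Promoters with the longer element are shown for the 3 receptor or co-chaperone genes of the outer membrane route and for Timm29, the most abundant TIM22 gene, written 5′ to 3′ along the gene with each GCGTG core, or CACGC where it lies on the opposite strand, in capitals. Positions count from the start as 1, with bases before it negative, and give the leftmost base. In Tomm34 the element began at -225 on the opposite strand and a further core at -22. In Tomm20 the element began at -137 on the opposite strand, with further cores at -70 and -18. In Timm29 it began at 22, and a further core at 44. Tomm70a held elements beginning at -170 on the opposite strand and at 38, and a further core at -238.
Tomm34 (chr2:164071053-164071352, minus strand): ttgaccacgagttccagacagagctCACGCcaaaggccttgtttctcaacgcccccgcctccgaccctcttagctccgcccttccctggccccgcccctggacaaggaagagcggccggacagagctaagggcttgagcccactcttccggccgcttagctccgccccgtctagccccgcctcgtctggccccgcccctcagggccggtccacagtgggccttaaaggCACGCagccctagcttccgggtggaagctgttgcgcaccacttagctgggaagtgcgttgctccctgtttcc
Tomm20 (chr8:126945872-126946171, minus strand): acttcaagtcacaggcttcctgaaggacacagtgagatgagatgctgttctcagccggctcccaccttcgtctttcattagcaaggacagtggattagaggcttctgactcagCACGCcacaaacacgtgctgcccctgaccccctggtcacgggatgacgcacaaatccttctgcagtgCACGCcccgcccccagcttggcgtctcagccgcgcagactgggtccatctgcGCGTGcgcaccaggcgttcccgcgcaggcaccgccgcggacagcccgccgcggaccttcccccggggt
Tomm70a (chr16:57121464-57121763, plus strand): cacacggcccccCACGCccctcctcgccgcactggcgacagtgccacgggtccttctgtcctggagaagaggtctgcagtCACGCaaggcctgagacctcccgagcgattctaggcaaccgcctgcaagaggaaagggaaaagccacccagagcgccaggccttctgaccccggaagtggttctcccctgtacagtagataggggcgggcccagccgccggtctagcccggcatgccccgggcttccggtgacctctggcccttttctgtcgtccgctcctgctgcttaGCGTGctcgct
Timm29 (chr9:21592472-21592771, plus strand): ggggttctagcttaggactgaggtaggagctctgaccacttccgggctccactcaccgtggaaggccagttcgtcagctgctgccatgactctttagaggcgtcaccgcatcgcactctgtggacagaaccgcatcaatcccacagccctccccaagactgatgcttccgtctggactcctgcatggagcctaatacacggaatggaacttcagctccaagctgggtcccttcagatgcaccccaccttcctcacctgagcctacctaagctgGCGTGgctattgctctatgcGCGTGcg

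Motifs of other factors were counted in the same promoters. The ETS motif CCGGAAG, the kind of site that GABP (nuclear respiratory factor 2) binds, was in 11 of the 28 promoters (39.3%), against 8.86% of all promoters and 15.6% of those of tested genes. The 10 genes were Grpel1, Timm10, Timm10b, Timm23, Timm29, Timm8a2, Timm8b, Tomm22, Tomm34 and Tomm70a. The motif GCATGCG, part of the site of nuclear respiratory factor 1, was in 2 promoters (7.14%, against 3.58% and 5.76%), those of Grpel1 and Timm13. The median GC content was 58.3% in the import gene promoters, 60.3% in those of tested genes and 52.7% in all promoters.

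Samm50 (ENSMUSG00000022437, chromosome 15, 84192241 to 84217267) encodes the beta-barrel core of SAM and gave the most counts of the machinery, with up to 14789 in a library. It was at 221, 237 and 243 CPM in AAV9-HSA-CAAHR muscles and at 213, 230.4 and 262 CPM in AAV9-HSA-GFP muscles. The AAV9-HSA-GFP libraries held both the lowest and the highest value, and the log2 fold change was -0.01 ± 0.11, with an interval from -0.26 to 0.23.

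The small TIM proteins form chaperone hexamers in the intermembrane space. Timm8b (chromosome 9, 50603910 to 50605320), the most abundant per length, was at 43.1, 40.3 and 41.8 CPM against 39.1, 42.8 and 44.6 CPM. Its groups overlapped throughout, and its log2 fold change was -0.02 ± 0.09. Timm13, which pairs with the TIM8 proteins, was at 36.6, 46.1 and 47.6 CPM against 39.2, 42.3 and 49.2 CPM (log2 fold change -0.0032 ± 0.13). Timm9 and Timm10, which form the chaperone of carrier proteins, had log2 fold changes of 0.03 ± 0.13 and 0.02 ± 0.16. Timm8a1 (chromosome X, 134537256 to 134541865) had the fewest reads of the tested protein-coding members, with 73 to 147 counts. It was at 2.85, 2.19 and 2.41 CPM against 1.51, 1.88 and 2.34 CPM, with replicate 34 below AAV9-HSA-GFP replicate 46, and a log2 fold change of 0.37 ± 0.22 (interval -0.11 to 0.86).

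The TIM22 translocase inserts carriers such as the adenine nucleotide translocator into the inner membrane. Timm29 (ENSMUSG00000048429, chromosome 9, 21592722 to 21595970), which links TIM22 to the TOM complex, was at 80.3, 89.3 and 77.4 CPM in AAV9-HSA-CAAHR muscles and at 71.3, 77.9 and 64.1 CPM in AAV9-HSA-GFP muscles. Replicate 36 lay just below AAV9-HSA-GFP replicate 43, and the log2 fold change was 0.21 ± 0.11 with an adjusted p of 0.258 (edgeR). Timm22, the channel itself, was at 23.7, 23.0 and 23.5 CPM against 20.5, 21.6 and 22.1 CPM. Its groups were apart, with a log2 fold change of 0.13 ± 0.09 (interval -0.06 to 0.32). Timm10b, the small TIM that docks on the complex, was at 5.82 ± 0.107 CPM against 6.47 ± 0.997 CPM (log2 fold change -0.15 ± 0.14).

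Timm23 (ENSMUSG00000013701, chromosome 14, 32180162 to 32201898) encodes the channel for presequence proteins. It was at 149, 162 and 153 CPM in AAV9-HSA-CAAHR replicates 31, 34 and 36 and at 163, 185 and 178 CPM in AAV9-HSA-GFP replicates 42, 43 and 46. The groups did not overlap, but AAV9-HSA-CAAHR replicate 34 and AAV9-HSA-GFP replicate 42 were nearly equal, and the log2 fold change of -0.18 ± 0.10 (interval -0.40 to 0.04) had an adjusted p of 0.292 (edgeR). Timm23 has near-identical copies. Its longest coding transcript matches 5 other genes of the count table at 95% identity or more, among them Gm10273, with 99.9% identity over 1121 of 1173 bases. These 5 held at most 15 counts in any library, against 7518 to 9429 for Timm23. Only unique reads were counted, so low counts at the copies cannot show how many reads were shared with them.

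The other TIM23 genes gave smaller values. Timm17a, a structural partner of the channel, was at 95.2, 87.8 and 92.7 CPM against 87.0, 96.4 and 116 CPM, where AAV9-HSA-GFP replicate 46 stood above the rest. Its log2 fold change was -0.12 ± 0.12. Its paralogue Timm17b had a log2 fold change of 0.08 ± 0.12. Timm50, the receptor that passes presequences from TOM to TIM23, was at 36.4 ± 3.54 CPM against 37.0 ± 2.67 CPM (log2 fold change -0.02 ± 0.10). Timm21, which connects the translocase with TOM and the respiratory chain, was at 12.6 ± 2.10 CPM against 12.2 ± 0.741 CPM (log2 fold change 0.04 ± 0.14).

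In the motor, Timm44 (chromosome 8, 4259731 to 4275913) tethers Hsp70 to the channel and was at 48.5, 50.5 and 53.6 CPM in AAV9-HSA-CAAHR muscles and at 46.5, 53.9 and 56.4 CPM in AAV9-HSA-GFP muscles. The AAV9-HSA-CAAHR values fell inside the AAV9-HSA-GFP range, and the log2 fold change was -0.04 ± 0.10. Pam16, a J-like regulator of Hsp70, was at 21.1 ± 3.25 CPM against 21.5 ± 2.93 CPM (log2 fold change -0.03 ± 0.14). The nucleotide exchange factors Grpel1 and Grpel2 release Hsp70 from its client. Grpel1 was at 47.0, 43.5 and 47.2 CPM against 40.5, 47.2 and 44.2 CPM (log2 fold change 0.06 ± 0.09). Grpel2 was at 14.5, 14.2 and 13.6 CPM against 12.9, 13.0 and 11.2 CPM, with all AAV9-HSA-CAAHR libraries above, a log2 fold change of 0.19 ± 0.10 and an adjusted p of 0.297 (edgeR).

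**Figure D2:**
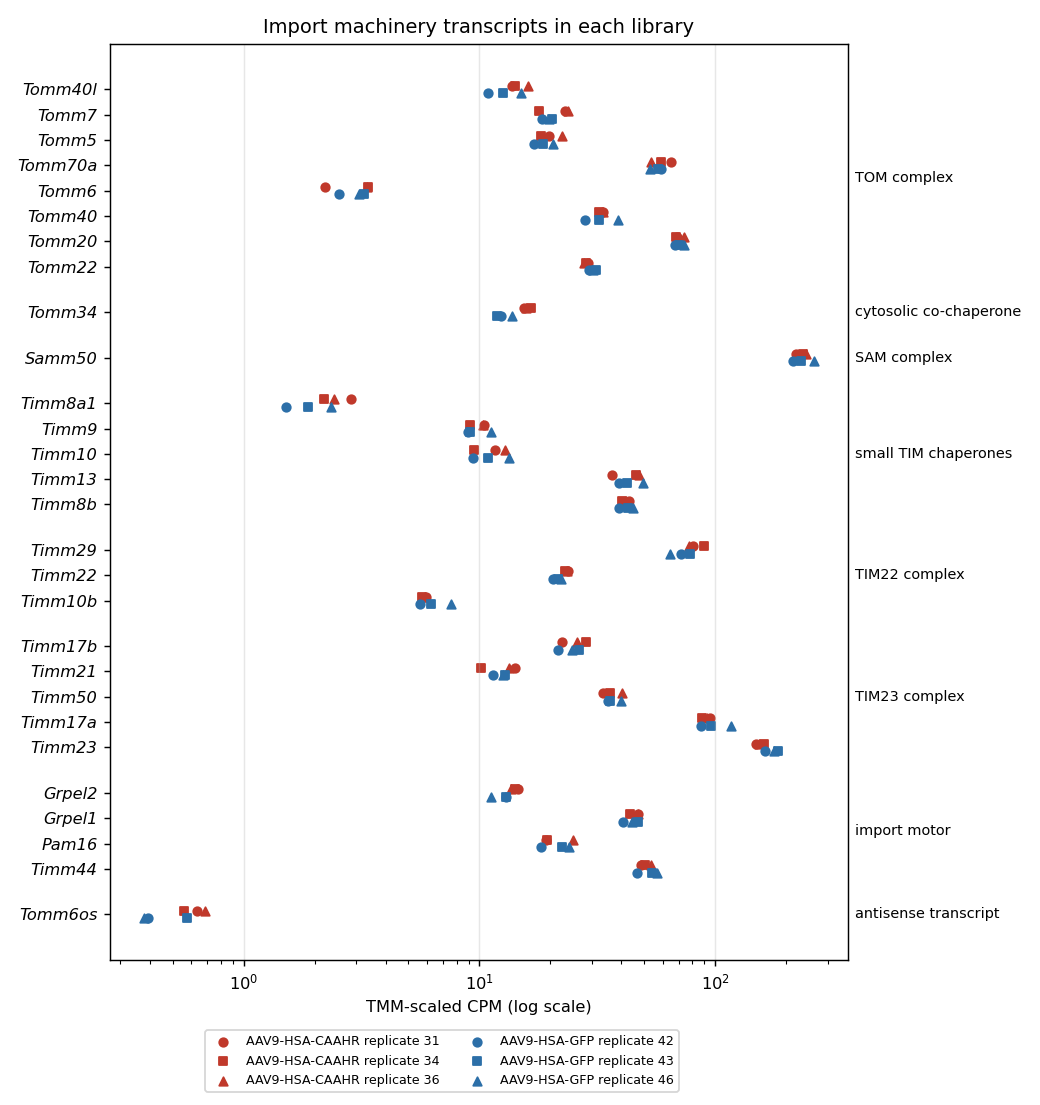
TMM-scaled CPM (log axis) of the 28 tested import machinery genes in each of the 6 libraries, grouped by complex; red marks AAV9-HSA-CAAHR, blue AAV9-HSA-GFP, and the symbol gives the replicate. The groups are apart for Tomm34, Timm22, Grpel2, Timm23 and Tomm22 and overlap for the other genes.

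Levels between genes were compared per length, as CPM per kilobase of exon, in AAV9-HSA-GFP muscles. Timm23 was the most abundant at 98.2 ± 6.47 CPM per kilobase (SD, n = 3), followed by Timm8b at 81.5 ± 5.39, Samm50 at 35.9 ± 3.80, Timm13 at 31.8 ± 3.75 and Timm29 at 22.4 ± 2.18. Every library of Timm23 lay above those of Timm8b, and every library of Timm8b above those of Samm50, whereas Samm50 and Timm13 overlapped. Of the 29 neighbouring pairs in this order, 16 overlapped between libraries. From Tomm20, at 14.3 ± 0.620, through Timm44, Timm50 and Timm10 to Timm17a, at 12.7 ± 1.91, no neighbours could be told apart. At the low end were Grpel2 at 1.83 ± 0.148, Timm10b at 1.81 ± 0.278 and Timm8a1 at 1.34 ± 0.292. The order depends on the length used, since all annotated exons were counted: per kilobase of the longest coding sequence Timm23 was still first, at 279.7, and Timm17a moved from place 13 to 2.

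**Figure D3:**
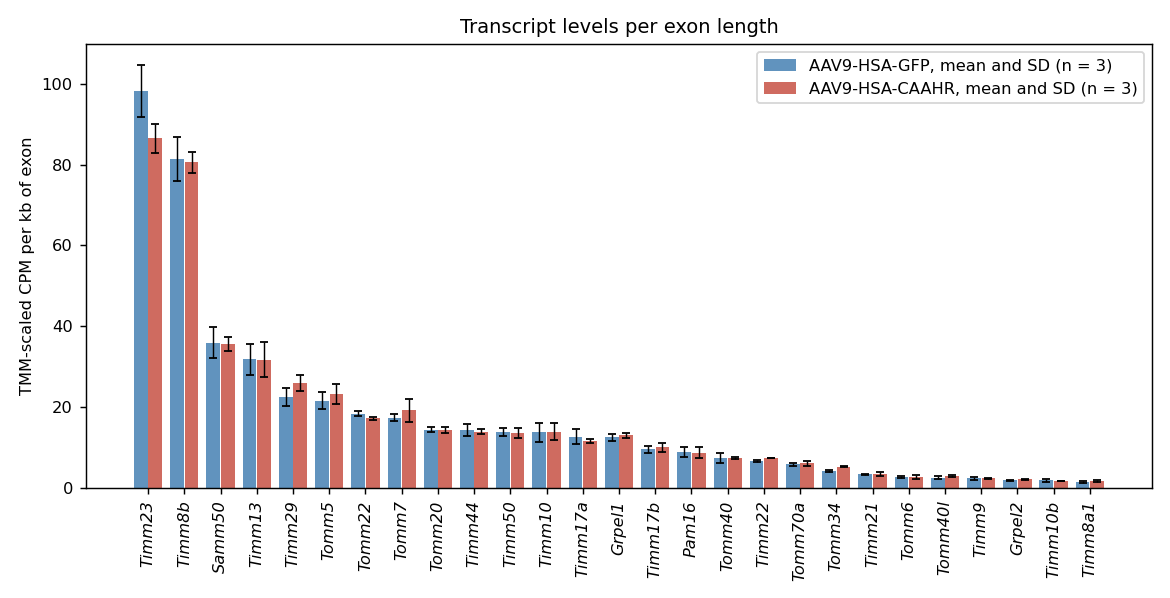
Mean TMM-scaled CPM per kilobase of exon for the 27 protein-coding import genes above the floor, ordered by the level in AAV9-HSA-GFP muscles; bars show both vectors and error bars the SD of 3 libraries. Timm23 (98.2 and 86.5) and Timm8b (81.5 and 80.6) stand above all other genes in both groups.

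In 4 pairs of paralogues the share of the second gene in the length-scaled sum was compared within each library, which does not depend on scaling between libraries. The share of Tomm40l was 26.6%, 27.9% and 29.6% in AAV9-HSA-CAAHR muscles and 25.4%, 25.7% and 25.4% in AAV9-HSA-GFP muscles. The groups were apart, with a difference of 2.53 percentage points (exact two-sided permutation test, p = 0.1, the smallest that 3 against 3 libraries allow, and 0.2 adjusted over the 4 pairs). The share of Timm8b beside Timm8a1 was 97.9% ± 0.214 against 98.4% ± 0.247, also apart, with a difference of -0.505 percentage points (exact permutation test, p = 0.1, adjusted 0.2). That of Timm17b was 46.1% ± 3.88 against 42.9% ± 3.15 (exact permutation test, p = 0.4, adjusted 0.4), and that of Grpel2 beside Grpel1 was 13.8% ± 0.726 against 12.8% ± 1.32 (exact permutation test, p = 0.3, adjusted 0.4). None of the 4 could reach 0.05 in this design. The size of each share depends on the length used, here that of all annotated exons. Per kilobase of coding sequence in AAV9-HSA-GFP muscles, Timm17a and Timm17b were at 194.9 and 47.0 CPM, and Grpel1 and Grpel2 at 67.5 and 18.4. By the same measure Tomm40 and Tomm40l were at 30.4 and 13.9 CPM, and Timm8a1 and Timm8b at 6.56 and 169.

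**Figure D4:**
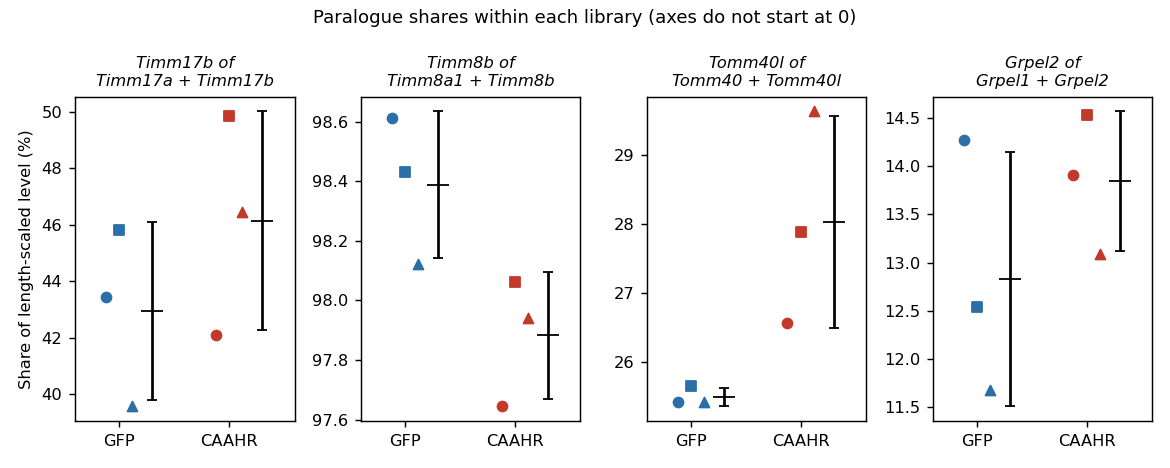
Share (%) of the second gene of each paralogue pair in their summed CPM per kilobase, in each library; red marks AAV9-HSA-CAAHR, blue AAV9-HSA-GFP, black bars are the mean and SD of 3 libraries, and the axes do not start at 0. Per kilobase of exon, the share of Tomm40l is 26.6% to 29.6% in AAV9-HSA-CAAHR and 25.4% to 25.7% in AAV9-HSA-GFP muscles.

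The import genes varied between muscles of the same group. Their counts made up 0.107% to 0.124% of all counts, and their summed level was 1149, 1171 and 1199.9 CPM in AAV9-HSA-CAAHR replicates 31, 34 and 36 and 1090.0, 1194 and 1252 CPM in AAV9-HSA-GFP replicates 42, 43 and 46. By summed level the AAV9-HSA-GFP libraries held both ends of the range, whereas the highest share of counts was in AAV9-HSA-CAAHR replicate 36. AAV9-HSA-GFP replicate 42 was the lowest of the 6 libraries for 16 of the 28 genes (57.1%), whereas it was the lowest for 13.2% of all tested genes. AAV9-HSA-GFP replicate 46 was the highest for 9 (32.1%, against 16.4% of all tested genes) and AAV9-HSA-CAAHR replicate 36 for 8 (28.6%, against 16.7%). Which side of 0 most genes lay on changed with these libraries: 17 of 28 lay above 0 with all libraries, 25 without AAV9-HSA-GFP replicate 46, 12 without AAV9-HSA-GFP replicate 42 and 12 without AAV9-HSA-CAAHR replicate 36. It also changed with the scaling, with 24 above 0 with library size only and 10 with upper quartile. With the slow-fibre covariate, which was apart between the groups, 9 of 28 lay above 0, and the median log2 fold change was -0.12.

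Other mitochondrial genes were set beside them. Relative to the AAV9-HSA-GFP mean, the median import gene differed by 0.05, -0.03 and 0.12 on the log2(CPM + 1) scale in AAV9-HSA-CAAHR replicates 31, 34 and 36 and by -0.11, 0.02 and 0.10 in AAV9-HSA-GFP replicates 42, 43 and 46. The medians for 82 nuclear OXPHOS subunits were 0.16, -0.11 and 0.23 and then -0.20, -0.0024 and 0.21. Those for 78 mitochondrial ribosomal protein genes were 0.01, -0.02 and 0.07 and then -0.12, 0.03 and 0.11. AAV9-HSA-GFP replicate 42 was the lowest library by all 3 medians. By edgeR 0 of the 82 and 0 of the 78 genes had an adjusted p under 0.05, against 7.60% of all tested genes. At an unadjusted p under 0.05 there were 7 and 3, against 23.9% of all tested genes. Their median log2 fold changes were 0.10 and 0.01. Of the 82, 64 lay above 0, and of the 78, 44, beside 51.2% of all tested genes. DESeq2 and limma-voom each called 0 of the 82 and 1 of the 78, beside 1923 and 1461 of all 15847 tested genes. By these tools 8 and 12 subunits and 4 and 4 ribosomal protein genes had an unadjusted p under 0.05, which was not counted over all genes.

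**Figure D5:**
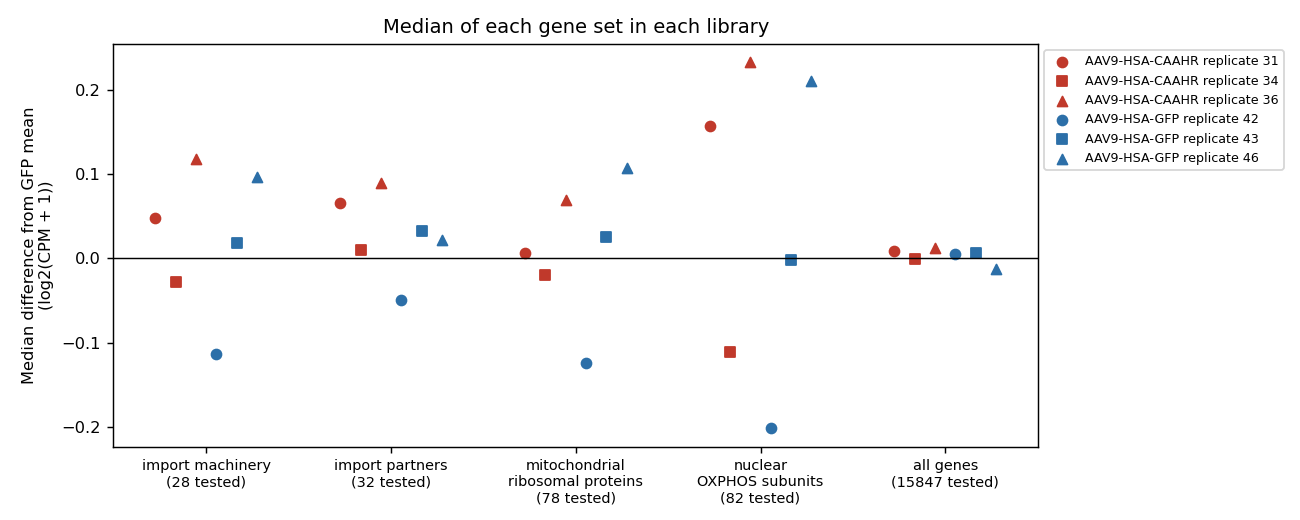
Median over genes of the difference from the AAV9-HSA-GFP mean, on the log2(CPM + 1) scale, for the import genes, their partners, 2 other mitochondrial gene groups and all tested genes, in each library; red marks AAV9-HSA-CAAHR and blue AAV9-HSA-GFP. The import genes run from -0.11 to 0.12, with AAV9-HSA-GFP replicate 42 lowest.

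The partners of the machinery that the name rule leaves out were examined as a list of 32 genes, all of which were tested. They comprised the metaxins, chaperones of the cytosol and matrix, the oxidative folding pathway of the intermembrane space, processing peptidases and inner membrane insertases. Other membrane proteins, among them Atad1, Romo1 and Timmdc1, were also on the list. No partner had an adjusted p under 0.05, and 6 of 32 (18.8%) were at an unadjusted p under 0.05, 5 higher and 1 lower, again beside 23.9% of all tested genes. The median log2 fold change was 0.06. Immp2l, a subunit of the inner membrane peptidase, was at 6.59, 5.69 and 7.71 CPM against 4.25, 4.88 and 4.87 CPM. Its groups were apart, and its log2 fold change of 0.51 ± 0.15 had an adjusted p of 0.0718 (edgeR). It passed with library size only, without a filter on low counts, with DESeq2 (adjusted p 0.0453), with limma-voom (adjusted p 0.0448) and without AAV9-HSA-CAAHR replicate 34. Its log2 fold change was from 0.50 to 0.61 in these settings.

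The other partners at an unadjusted p under 0.05 differed by less. Atad1, which extracts misplaced proteins from the outer membrane, was at 80.8 ± 9.11 CPM against 63.4 ± 6.99 CPM (log2 fold change 0.35 ± 0.12). Romo1, a small inner membrane protein, had a log2 fold change of 0.33 ± 0.11, Xpnpep3, a peptidase, one of 0.29 ± 0.13, and Timmdc1, an assembly factor of complex I, one of 0.22 ± 0.09. Gfer, the sulfhydryl oxidase that reoxidises the import receptor of the intermembrane space, was the 1 with a negative value, at 27.6, 32.0 and 32.9 CPM against 35.1, 36.5 and 37.6 CPM. All its AAV9-HSA-CAAHR libraries lay below, and the log2 fold change was -0.24 ± 0.10 with an adjusted p of 0.168 (edgeR). Hspa9, the mitochondrial Hsp70 of the import motor, was at 382 ± 51.1 CPM against 393 ± 22.4 CPM (log2 fold change -0.04 ± 0.12).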

How the data were processed

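Total RNA of 6 gastrocnemius muscles was poly(A)-selected and sequenced as paired ends. As deposited, the values were raw counts per gene, which the authors had made by trimming with Trimmomatic 0.36, aligning to GRCm38 with STAR 2.5.2b and counting unique exonic reads with featureCounts; whether libraries were stranded is not given in the sources used here. Libraries were grouped by their titles. Nothing in the labels says that the 3 libraries of a group came from separate animals, so p-values measure the spread between these libraries.

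The model was fitted to the counts of all genes by edgeR 4.0.16 (R 4.3.3), with filterByExpr (15847 genes kept), TMM scaling, the robust quasi-likelihood F test and Benjamini-Hochberg adjustment, and an adjusted p under 0.05 was called. CPM are counts relative to the TMM-scaled library total. SE and 95% intervals were derived from the F statistic and its degrees of freedom and are approximate. DESeq2 1.42.0, which the authors used, and limma-voom (limma 3.58.1) were alternatives. Floors cover counting error only. Exon lengths, positions and overlaps came from GENCODE M21 (GRCm38), in which 99.3% of the 49315 identifiers were found. Of the 30 members, 16 shared exon bases with another gene, and 7 (Grpel2, Pam16, Timm17a, Timm23, Timm8a1, Tomm20 and Tomm7) had a copy elsewhere over at least 150 bases at 95% identity or more; unique-read counting can lose their reads. The fit was tested on simulated data.

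The members and gene lists were chosen with earlier results of these data known. Every member was named. Values per library were given for members with an unadjusted p under 0.05, for the most abundant member of each complex, and for other members where the groups were apart or the values were of interest, which was decided after they were seen. Of the partner list, genes at an unadjusted p under 0.05 were named, and Hspa9 was added for its role; the other members of that list enter its counts and median.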

Additional observations from a re-analysis of the deposited data

How the results depend on the processing

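No paired analysis was possible because no replicate number occurs in both groups. The count of 0 import genes with an adjusted p under 0.05 was 1 (Tomm34, higher) with library size only and 0 in each of the other settings, also with any 1 library left out. The median of all genes was 0.09 with library size only and -0.06 with upper quartile, against 0.01, and 876 of 1476 and 358 of 1348 called genes were higher, against 481 of 1205. The count of 0 partner genes was 1 (Immp2l) with library size only, DESeq2 and limma-voom, 4 (Immp2l, Atad1, Romo1 and Mtx2) without a filter on low counts, and 0 to 1 with 1 library left out. The count over all genes, 1205 of 15847 tested, was 2470 of 28661 tested without a filter, 1923 with DESeq2 and 451 with the slow-fibre covariate. It was 530 to 1727 with 1 library left out, the lowest without AAV9-HSA-CAAHR replicate 36 and the highest without AAV9-HSA-CAAHR replicate 34. It was also over 1.5 times lower without AAV9-HSA-CAAHR replicate 31 (694), AAV9-HSA-GFP replicate 43 (701) or 46 (604). Within 100 bases before the start, the core GCGTG was in 10 promoters against 17, TNGCGTG in 1 against 7 and GCATGCG in 1 against 2, a shorter window by construction. For the rest, the cause was not tested.

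Differences in paralogue share kept their sign in each of these settings. With coding length they were 2.84 percentage points for Tomm40l, -1.13 for Timm8b, 2.14 for Timm17b and 1.53 for Grpel2; that of Timm8b was -0.505 as reported, and those of Timm17b and Grpel2 also moved by about 1.5 times. With 1 library left out they ranged from 1.73 to 3.26 percentage points for Tomm40l, -0.64 to -0.39 for Timm8b, 1.33 to 5.20 for Timm17b and 0.44 to 1.73 for Grpel2.

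For single import genes, 252 values under other settings and 168 with 1 library left out were computed. Of these 35 and 34 had the opposite sign to the reported value, 1 newly passed (Tomm34), and the others kept their sign and side of the threshold. No gene with a changed sign had an adjusted p under 0.05 in any setting. Log2 fold changes of opposite sign with library size only were 0.061 for Timm50, 0.077 for Timm13, 0.044 for Timm44, 0.077 for Tomm20, 0.068 for Timm8b, 0.069 for Samm50 and 0.054 for Pam16. With upper quartile they were -0.053 for Timm10, -0.010 for Grpel1, -0.070 for Tomm40, -0.041 for Timm9, -0.0051 for Tomm70a, -0.061 for Tomm6 and -0.036 for Timm21. DESeq2 size factors gave -0.0071 for Tomm40. The DESeq2 test gave -0.0071 for Tomm40. A filter of at least 10 counts in every library gave -0.0047 for Tomm40. Without a filter the values were 0.011 for Timm13, 0.0083 for Tomm20 and 0.0018 for Samm50. With limma-voom they were 0.024 for Timm50, 0.036 for Timm13, 0.019 for Tomm20, 0.023 for Samm50 and 0.041 for Pam16. With the slow-fibre covariate they were -0.033 for Tomm40l, -0.52 for Timm10, -0.10 for Timm8a1, -0.19 for Tomm5, -0.29 for Tomm7, -0.093 for Grpel1, -0.21 for Tomm40, 0.022 for Timm13, -0.28 for Timm9 and -0.46 for Timm21. That covariate, the centred mean of slow fibre transcripts, was at -0.17 to 1.88 in AAV9-HSA-CAAHR and -1.63 to -0.68 in AAV9-HSA-GFP libraries, so apart between the groups. With it 3 of the 28 tested import genes (Timm10, Timm21 and Timm29) were at an unadjusted p under 0.05 (edgeR). The share of all tested genes at that threshold was not counted for this fit. At an adjusted p under 0.05 there were 0 import genes, beside 451 of all 15847 tested genes. Values that moved by over 1.5 times without a change of sign included, with this covariate, 0.44 for Timm29 (0.21 as reported), -0.36 for Timm17a (-0.12) and -0.35 for Timm10b (-0.15). Tomm40l (0.19) was at 0.087 without AAV9-HSA-GFP replicate 42 and at 0.32 without AAV9-HSA-GFP replicate 46, and Tomm7 (0.15) at 0.067 without AAV9-HSA-CAAHR replicate 36 and at 0.26 without AAV9-HSA-CAAHR replicate 34. With 1 library left out, the ranges that crossed 0 were -0.17 to 0.053 for Pam16, -0.077 to 0.072 for Samm50, -0.090 to 0.17 for Timm10, -0.081 to 0.099 for Timm13, -0.21 to 0.0015 for Timm17a, -0.0087 to 0.16 for Timm17b, -0.064 to 0.16 for Timm21, -0.11 to 0.019 for Timm44, -0.11 to 0.038 for Timm50, -0.066 to 0.025 for Timm8b, -0.029 to 0.15 for Timm9, -0.050 to 0.026 for Tomm20, -0.10 to 0.13 for Tomm40, -0.092 to 0.18 for Tomm6 and -0.0089 to 0.13 for Tomm70a.

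Timm8a2 and Tomm20l were too shallow to test. The SE was 0.32 for Tomm6os, 0.22 for Timm8a1 and 0.21 for Tomm6, which had the fewest counts of the tested genes, against a median of 0.12.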
